A study of Homo sapiens with 24 samples.

Results

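The genes described here encode the proteins of the cytosolic ribosome. They were selected by a rule on names, set with earlier results of these data known. The rule takes rows whose Ensembl identifier carries a symbol made of RPL or RPS and a number, together with RPLP0, RPLP1, RPLP2 and RPSA. RPS6K kinases, RPS27L and names ending in L or L1 were left out. Of the 14585 genes in the count table, 82 matched, and 4 of these were set apart. They are RPS19BP1, which encodes a binding protein of RPS19, and the readthrough genes RPL17-C18orf32, RPL36A-HNRNPH2 and RPS10-NUDT3. The remaining 78 members were 46 genes of the large subunit and 32 of the small subunit.

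RNA was measured in A549, a lung carcinoma line with wild-type p53, and in Huh7, a hepatocellular carcinoma line with mutant p53. Cells of each line were either control or received the extract of a herb: *Pulsatilla chinensis* (called BTW, as in the sample names), *Bupleurum chinense* (CH) or *Polyporus umbellatus* (ZL). Each group had 3 libraries. The 3 comparisons in a line use the same 3 control libraries. Both lines are labelled wild type, and no other agent is named. The ethanol extracts were dissolved in DMSO, but what the control cells received, and the dose and time for the sequenced cells, are not given in the sources used here. Nothing states that replicates were separate cultures, so each p-value measures only the spread between these libraries, which may be technical. Counts are relative to the library, so lower expression and a change in the RNA content of the cells cannot be told apart.

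Ribosomal proteins assemble with ribosomal RNA into the subunits that translate mRNA. Their own mRNAs are mostly short and abundant. Most start with a cytosine and a run of pyrimidines, the terminal oligopyrimidine (TOP) tract. Through this tract, mTORC1 signalling and the protein LARP1 control the translation and stability of these mRNAs. When ribosome assembly fails, free RPL5 and RPL11 bind MDM2 and stabilise p53, while inherited loss of a copy of several members causes Diamond-Blackfan anemia.

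Windows around transcription starts are shown because the tract is the feature these mRNAs share in sequence, and because paralogs left out by the name rule differ in it. RefSeq start sites on GRCh38.p14 were matched for 63 of the 78 members, of which 56 (88.9%) had a C followed by at least 4 further C or T bases, on the sense strand and within 10 bases of the start. The share was 33.3% among all 27305 RefSeq promoters. A tract that began within 2 bases of the listed start, closer to the definition of a TOP mRNA, was found in 23 of the 63 members (36.5%) and in 7.41% of all promoters. Each window runs 5′ to 3′ from 10 bases before the start to 20 bases from it, with the tract in capitals. RPS27, RPL11, RPL41 and RPLP0 were examples set by name, and the others were added after their values were seen.
RPS27, chr1:153990752-153990781, plus strand: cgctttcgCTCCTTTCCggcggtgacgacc
RPL11, chr1:23691769-23691798, plus strand: cctggcccataaggCCCTCggccggaagct
RPL41, chr12:56116623-56116652, plus strand: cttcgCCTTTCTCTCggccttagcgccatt
RPLP0, chr12:120201092-120201121, minus strand: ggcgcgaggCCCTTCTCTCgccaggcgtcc
RPL24, chr3:101686699-101686728, minus strand: atgattCTCTCTTTCTTTTCgccatctttt
RPS19, chr19:41860245-41860274, plus strand: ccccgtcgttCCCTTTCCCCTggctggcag
RPL22, chr1:6199576-6199605, minus strand: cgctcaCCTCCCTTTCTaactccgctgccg
RPL22L1, chr3:170870176-170870205, minus strand: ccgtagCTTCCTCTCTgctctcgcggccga
RPS27L, chr15:63157458-63157487, minus strand: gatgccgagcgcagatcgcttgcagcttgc
No run of this kind was found in the window of RPS27L, whereas RPL22L1 carried one of 10 bases, and RPS19 one that began at the listed start. In A549 cells, the median log2 fold change of the 56 members with a tract was -0.15 with BTW, -0.19 with CH and -0.23 with ZL. For the 7 matched members without one, it was -0.21, -0.14 and -0.27, with no consistent order between the sets.

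Libraries held between 6803704 and 24345541 counts. Liver genes marked the Huh7 libraries, with ALB at 2890.0 to 4870.0 CPM (counts scaled to a common library size) against at most 0.71 CPM in A549. The liver gene HNF4A was also present in A549, at 44.5 to 121.0 CPM against 288.0 to 547.0 CPM in Huh7. KRT7, an epithelial marker, was detected at 1500.0 to 1790.0 CPM in A549 and at most 0.13 CPM in Huh7. Other epithelial markers did not separate the lines this way. KRT8, KRT18 and CDH1 overlapped, and EPCAM was higher in Huh7 (6.78 to 11.4 CPM against 0.44 to 5.26 CPM). Of 5 markers of alveolar type II cells only SFTPB had a row, at 0.99 to 2.73 CPM in A549 and 2.13 to 5.27 CPM in Huh7. The 3 Huh7 libraries with ZL stood apart from one another, and values by library are given for some of the genes that rest on them. Replicates varied more for all members than for other genes expressed at or above the members' lower quartile. The median SD of log2 CPM was 0.11 against 0.06 in A549 and 0.20 against 0.10 in Huh7. Members below that quartile were counted, so the sets were not matched in level. Every member has at least 1 pseudogene in RefSeq (median 16.5, and 137 for RPL21), and the division of reads among such copies, or between a member and its readthrough gene, is uncertain. RPS9 was the least stable, at 74 to 760 counts in A549 and 81 to 1987 in Huh7, and its values are not read further.

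In A549 cells, many ribosomal protein genes were lower with each extract than in control, by small amounts. With ZL, 42 of the 78 members fell and 0 rose, in the quasi-likelihood test of edgeR with Benjamini-Hochberg adjustment over all 13634 genes tested, where 14.8% of all genes fell and 13.4% rose. With CH, 31 members fell and 1 rose, against 15.0% and 13.1% of all genes. With BTW, 25 members fell and 1 rose, against 17.1% and 15.7%. As shares of the members, the falls were 53.9%, 39.7% and 32.1%. The median log2 fold change of the members was -0.23, -0.19 and -0.16 in the same order, which corresponds to 0.85, 0.88 and 0.90 of the control level, while the medians of all genes lay between -0.01 and 0.01.

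**Figure D1:**
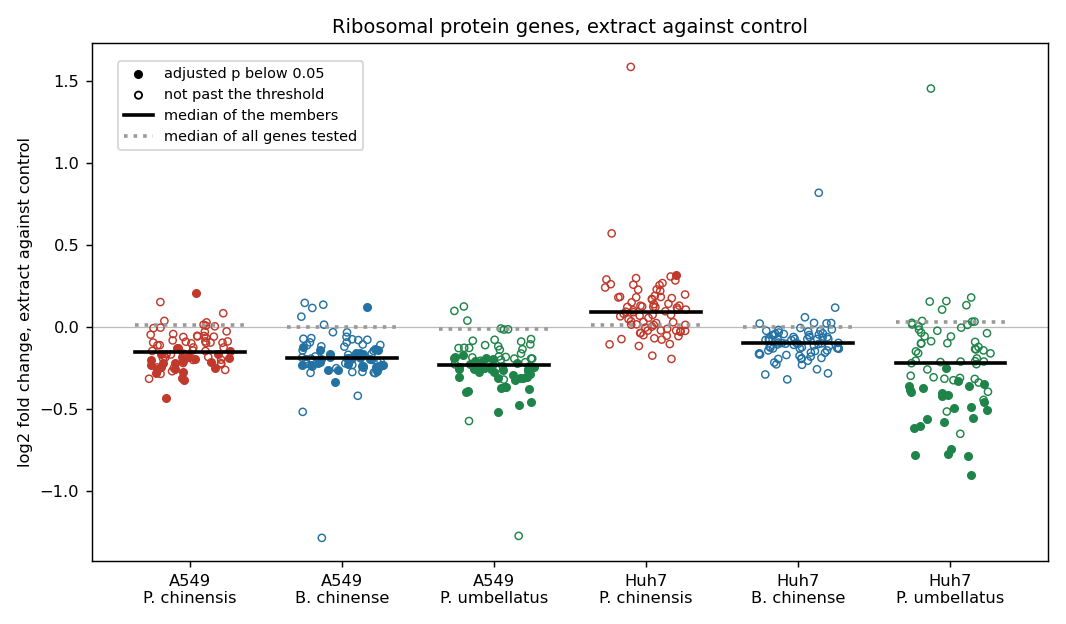
Log2 fold change of each member (points) with each extract against control in both lines, filled where the adjusted p was below 0.05. Black lines are the members' medians and dotted grey lines those of all genes tested. In A549 the members' medians are -0.16, -0.19 and -0.23. In Huh7 they are 0.09, -0.10 and -0.22. The most distant isolated points are RPS9.

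These counts depended on single libraries and on a correction for GC content and transcript length. Each correction fitted GC content and a length together, and a correction named below by its length includes GC content. No length was corrected for alone. Without the first BTW library 9 members fell with that extract, without its second library or the first control 15, and without the second control 12. With CH 11 fell without its first library, 19 without the second and 16 without the second control, and with ZL 24 fell without its second library. After correction for GC content and transcript length, 21 members were higher and 7 lower with BTW, 14 and 9 with CH, and 10 and 14 with ZL. Correction for GC content and coding length left 2 higher and 17 lower, 1 and 19, and 0 and 29. Shares of all genes, here and below, come from the uncorrected fit with every library of the line or lines. No such share stands beside counts under other settings, so those counts are not set against other genes.

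Members were compared with other genes of like transcript length, in ranges up to 1300 bases. Lengths were those of the canonical transcript of each gene. Members with longer ones were in none of these ranges, among them RPL37 (7573 bases, 291 of them coding) and RPL14 (7136 bases, 645 coding). Such lengths also entered the transcript length correction and the correlations below. The median transcript length of the members was 827 bases against 3384 for all genes, and other genes with transcripts of at most 500 bases had a median log2 fold change of -0.33 with BTW, -0.25 with CH and -0.31 with ZL over 95 genes. The 9 members in that range had medians of -0.10, -0.12 and -0.21, no lower than those genes. Between 500 and 700 bases the order was the opposite, since 20 members had medians of -0.18, -0.22 and -0.26 and 185 other genes -0.02, -0.10 and -0.14. Between 700 and 900 bases, 12 members had medians of -0.19, -0.19 and -0.24, and 247 other genes -0.06, -0.06 and -0.09. Between 900 and 1300 bases, 17 members had medians of -0.17, -0.19 and -0.25, and 704 other genes -0.01, -0.04 and -0.06. The 33 of these other genes expressed at or above the lower quartile of the members (174.5 CPM) were nearer to the members, at -0.13, -0.13 and -0.13. Genes of that level had medians of -0.22, -0.20 and -0.18 at up to 500 bases (8 genes), -0.04, -0.01 and -0.03 between 500 and 700 (13 genes), and -0.10, -0.03 and -0.04 between 700 and 900 (11 genes). Across the whole range of lengths, the Spearman correlation of log2 fold change with transcript length was weak, at -0.02, 0.05 and 0.20 over the 78 members and 0.07, 0.08 and 0.09 over 13555 other genes, all measured in the same libraries. With transcript GC content it was 0.26, 0.37 and 0.24 over the members and 0.07, 0.13 and 0.11 over the other genes. The part of length in the falls was not tested beyond these values and the corrections, which took GC content and length together.

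Among large subunit genes, 18 of 46 fell with BTW, 20 with CH and 27 with ZL, and 0 rose with any of them. Of all genes, 17.1%, 15.0% and 14.8% fell. RPL3, which lies near the peptidyl transferase centre, had 584, 623 and 574 CPM with BTW, 571, 576 and 626 CPM with CH and 644, 579.6 and 574 CPM with ZL, against 692, 716 and 723 CPM in control. All treated libraries lay below all controls, and its log2 fold changes were -0.26 ± 0.05 (SE), adjusted p = 0.0017, then -0.27 ± 0.05 (SE), adjusted p = 0.0019, and -0.24 ± 0.05 (SE), adjusted p = 0.0032. RPL24, which forms a bridge between the subunits, had 154, 169 and 179 CPM with BTW, 152, 154 and 176 CPM with CH and 177, 146 and 145 CPM with ZL, against 207, 214 and 187 CPM in control. The groups did not overlap, and the changes were -0.27 ± 0.09 (SE), adjusted p = 0.025, then -0.34 ± 0.09 (SE), adjusted p = 0.0097, and -0.37 ± 0.09 (SE), adjusted p = 0.0047. The groups of 3 libraries were separated downward for 22.6%, 21.4% and 21.7% of all genes in the 3 comparisons. The fall of RPL3 kept its call under both length corrections. For RPL24, correction for GC content and transcript length gave 0.09 with BTW, 0.00 with ZL and -0.00 with CH, none past the threshold. The fall of RPL24 lost its call with BTW without BTW library 1 or control 1 or 2 (-0.26 to -0.22), and with CH without CH library 1 (-0.28).

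The largest falls of members past the threshold differed by extract. With BTW they were RPL21 at -0.43 ± 0.12 (SE), adjusted p = 0.013, RPL37 at -0.32 ± 0.08 (SE), adjusted p = 0.0068, and RPL17 at -0.31 ± 0.10 (SE), adjusted p = 0.033, all proteins of the large subunit. RPL21 had 171, 173 and 199 CPM with the extract and 204, 271 and 258 CPM in control. RPL17, which lines the peptide exit tunnel, had 188, 204 and 251 CPM with the extract and 277, 275 and 247 CPM in control, so that 1 treated library overlapped the controls. The readthrough gene RPL17-C18orf32, which shares reads with it, had a log2 fold change of 0.40 ± 0.13 (SE), adjusted p = 0.026. RPL21 lost its call without BTW library 1 or control 2 (-0.39 and -0.35), and RPL17 without BTW library 1 or 2 or control 1 or 2 (-0.28 to -0.23). The call of the readthrough gene was lost without BTW library 1 or 2 or any 1 of the controls (0.31 to 0.42).

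With CH, the largest falls after RPL24 were those of RPL7 at -0.27 ± 0.07 (SE), adjusted p = 0.011, and RPL3, with RPL7 at 449.8, 482 and 476 CPM with the extract and 595, 573 and 526 CPM in control. With ZL they were RPL27 at -0.52 ± 0.18 (SE), adjusted p = 0.0498, RPL36 at -0.48 ± 0.14 (SE), adjusted p = 0.017, and RPS24 at -0.46 ± 0.13 (SE), adjusted p = 0.015. RPL27 had 76.5, 47.8 and 50.5 CPM with the extract and 92.5, 84.3 and 77 CPM in control, RPL36 had 119, 75.6 and 83.4 CPM with the extract and 137, 136 and 119 CPM in control, and RPS24 had 243, 185 and 187 CPM with the extract and 322, 285 and 244 CPM in control. In each of these, the first ZL library lay at or just under the lowest control and the others well below it. RPL27 no longer passed with DESeq2, nor without any 1 of 8 libraries, namely BTW 2, CH 1, CH 2, the controls, ZL 2 and ZL 3 (-0.58 to -0.39). RPL36 lost its call without control 1 or 2 or ZL library 2 or 3 (-0.45 to -0.35), and RPS24 without control 1 or ZL library 2 or 3 (-0.40 to -0.36). RPL7 lost its call with CH without CH library 1 (-0.22). RPL41, the shortest ribosomal protein, had 548.7, 419.8 and 429.9 CPM with the extract and 550.1, 623 and 547 CPM in control, with a log2 fold change of -0.30 ± 0.10 (SE), adjusted p = 0.034, and lost its call without control 2 or ZL library 2 or 3 (-0.24 to -0.23).

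Small subunit proteins decode the mRNA and bind initiation factors. Of 32 such genes, 7 fell with BTW, 11 with CH and 15 with ZL, where 17.1%, 15.0% and 14.8% of all genes fell. RPS6, the substrate of the S6 kinases, had 600.3, 634 and 707 CPM with the extract and 811, 798 and 708 CPM in control in the BTW comparison, with a log2 fold change of -0.25 ± 0.07 (SE), adjusted p = 0.017. With ZL it had 691, 583 and 595 CPM and a log2 fold change of -0.31 ± 0.07 (SE), adjusted p = 0.0063. The call with BTW was lost without BTW library 1 or control 1 or 2 (-0.22 to -0.20). RPS19 rose with BTW and CH. It takes part in maturation of the small subunit and is the gene most often mutated in Diamond-Blackfan anemia. RPS19 had 855, 882 and 885 CPM with the extract and 781, 759.9 and 733 CPM in control with BTW (0.20 ± 0.04 (SE), adjusted p = 0.0014). With CH it had 837, 811 and 823 CPM (0.12 ± 0.04 (SE), adjusted p = 0.043), and the change lost its call without any 1 of 7 libraries, namely the 3 with CH, controls 2 and 3, BTW 1 and ZL 3, at values from 0.10 to 0.13. With ZL its log2 fold change was 0.04 ± 0.04 (SE), adjusted p = 0.55. In the first pair of comparisons all treated libraries were above all controls, as for 22.6% and 19.1% of all genes.

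RPL5 and RPL11 reach MDM2 together with the 5S ribosomal RNA. RPL5 had 333, 318 and 345 CPM with BTW, 310.3, 317 and 315 CPM with CH, 328, 318 and 312 CPM with ZL and 385, 369.5 and 365 CPM in control, with no overlap between treated and control libraries. Its log2 fold changes were -0.17 ± 0.04 (SE), adjusted p = 0.0069, then -0.25 ± 0.04 (SE), adjusted p = 5.5e-04, and -0.22 ± 0.04 (SE), adjusted p = 0.0012. Libraries were separated downward in this way for 22.6%, 21.4% and 21.7% of all genes. RPL11 did not pass the threshold, with log2 fold changes of -0.32, -0.15 and -0.25 and a standard error of 0.29 each. Of 8 other members known to bind MDM2, 3 fell with BTW, 5 with CH and 6 with ZL. RPL23, RPL26 and RPS7 fell in each comparison, by log2 fold changes between -0.19 and -0.28. Corrected for GC content and transcript length, RPL26 was instead at 0.21 and 0.18 with BTW and CH, past the threshold. It was at 0.17 with ZL, not past it, while RPS7 was at 0.03, -0.01 and -0.00. Without single BTW, CH or control libraries the calls of RPL26 with BTW (BTW 1, BTW 2, control 2, -0.18 to -0.16) and with CH (CH 2, CH 3, controls 1 and 2, -0.19 to -0.18), and of RPS7 with BTW (BTW 1, BTW 2, controls 1 and 2, -0.18 to -0.13), were lost. Of 19 members mutated in Diamond-Blackfan anemia, 5, 7 and 14 fell (26.3%, 36.8% and 73.7%), where 32.1%, 39.7% and 53.9% of all members and 17.1%, 15.0% and 14.8% of all genes did, and RPS19 rose as given above. In the P stalk, which recruits elongation factors, RPLP0 had 1450.2, 1458 and 1444 CPM with the extract and 1539, 1566 and 1627 CPM in control with CH and fell (-0.12 ± 0.04 (SE), adjusted p = 0.033), though not without any 1 of the CH libraries, controls 2 and 3 or BTW 2 (-0.12 to -0.10), while RPLP1 and RPLP2 did not pass in any of the comparisons. Of the X- and Y-linked members, RPL10 and RPL39 fell with CH and RPL39 with ZL, whereas RPS4X and RPL36A did not pass. Corrected for GC content and transcript length, however, RPL39 was higher with CH and ZL (0.37 and 0.36). With CH, the call of RPL10 was lost without CH 1, CH 2 or control 3 (-0.15 to -0.12) and that of RPL39 without BTW 2, CH 1, CH 2, control 1 or control 2 (-0.13 to -0.10). RPS4Y1 passed the filter on low counts in A549 only.

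The name rule left out paralogs that stand in for a member in some ribosomes or act in other roles. RPS27L, a paralog of RPS27 known as a p53 target, rose with all 3 extracts in A549. It had 204, 219.8 and 227 CPM with BTW, 204, 188 and 177 CPM with CH and 185, 178 and 180.3 CPM with ZL, against 117, 111 and 102 CPM in control, so that every treated library exceeded every control. The log2 fold changes were 0.98 ± 0.06 (SE), adjusted p = 4.0e-08, then 0.79 ± 0.07 (SE), adjusted p = 6.9e-07, and 0.72 ± 0.06 (SE), adjusted p = 1.4e-06. All treated libraries exceeded all controls for 22.6%, 19.1% and 19.9% of all genes with BTW, CH and ZL. RPS27 had 119, 129.7 and 159.9 CPM, 108.3, 128 and 146 CPM and 123, 98 and 112 CPM in the same order and 156, 151 and 132 CPM in control, and fell with ZL (-0.39 ± 0.12 (SE), adjusted p = 0.026). Its change was -0.10 ± 0.12 (SE), adjusted p = 0.59 with BTW and -0.20 ± 0.12 (SE), adjusted p = 0.26 with CH. Corrected for GC content and transcript length it was at 0.41 with BTW, past the threshold, and at 0.11 with ZL. The fall with ZL lost its call without control 1 or 2 or ZL library 2 or 3 (-0.40 to -0.31).

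RPL22L1, a paralog of RPL22, fell with each extract. It had 29.3, 29.8 and 34.2 CPM with BTW, 40.2, 38.3 and 45.5 CPM with CH and 44, 45.2 and 43.5 CPM with ZL, against 65.8, 62.5 and 49.1 CPM in control, again without overlap. The log2 fold changes were -0.92 ± 0.11 (SE), adjusted p = 1.6e-05, then -0.52 ± 0.11 (SE), adjusted p = 0.0026, and -0.41 ± 0.11 (SE), adjusted p = 0.0094. All treated libraries lay below all controls for 22.6%, 21.4% and 21.7% of all genes. RPL22 had log2 fold changes of -0.20, -0.25 and -0.14, and none passed the threshold. RPL7L1, which acts in ribosome assembly, fell by 0.19, 0.23 and 0.21 on the log2 scale, with the call lost in the BTW comparison without BTW 2, BTW 3 or any 1 of the controls (-0.19 to -0.15), in that of CH without CH 1 (-0.18), and in that of ZL without ZL 1 (-0.16). Of the 7 paralogs tested, 1 rose and 2 fell in each comparison. Of all genes, 15.7%, 13.1% and 13.4% rose and 17.1%, 15.0% and 14.8% fell with BTW, CH and ZL. In Huh7 cells the log2 fold changes of RPS27L were -0.01, -0.14 and -0.18 and those of RPL22L1 0.03, -0.10 and 0.02, none past the threshold.

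**Figure D2:**
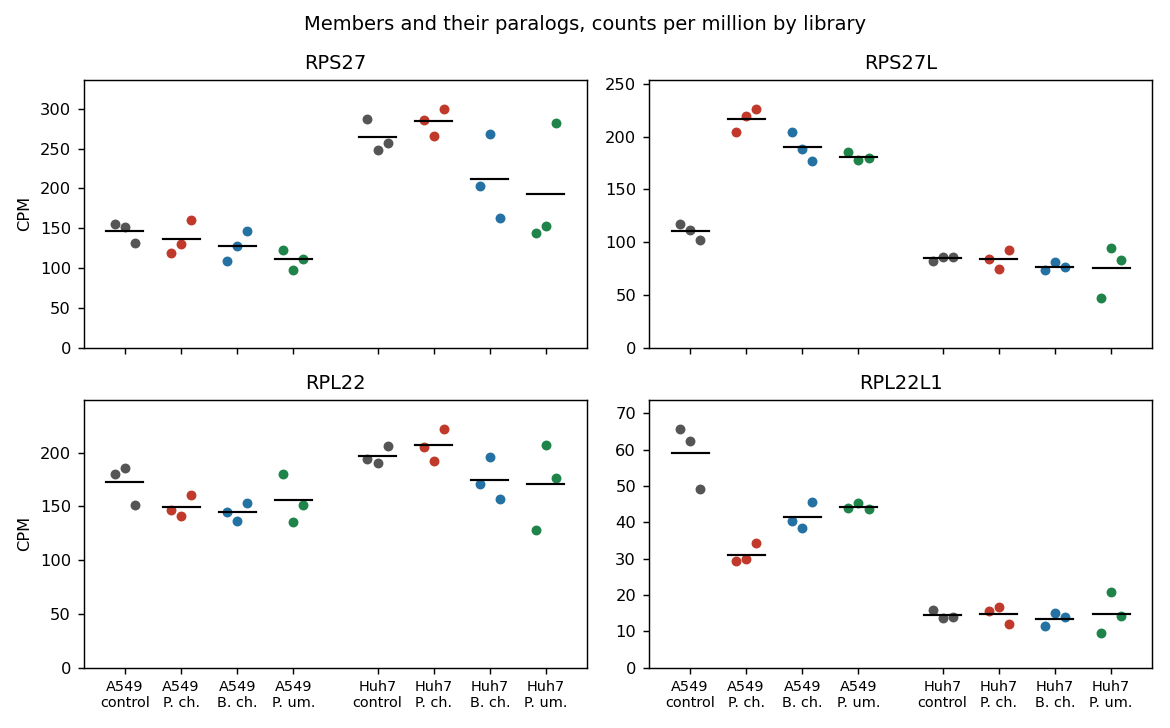
CPM of RPS27, RPS27L, RPL22 and RPL22L1 in each library (points) with the group mean (line), on axes that start at 0, for control and the extracts BTW (P. ch.), CH (B. ch.) and ZL (P. um.). In A549 every treated library exceeds the controls for RPS27L and lies below them for RPL22L1. In Huh7 neither paralog passed the threshold.

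RACK1, a scaffold protein of the small subunit whose name lies outside the rule, fell with CH (-0.15 ± 0.05 (SE), adjusted p = 0.037) and ZL (-0.16 ± 0.05 (SE), adjusted p = 0.03). RACK1 lost its call with CH without BTW 2, CH 1 or 2 or any control (-0.17 to -0.10), and with ZL without control 1 or 2 or ZL 2 or 3 (-0.16 to -0.12). Other mRNAs of the TOP class, which encode translation and RNA-binding factors, were lower as well in part. Of 18 genes, 7 fell with BTW, 9 with CH and 8 with ZL (17.1%, 15.0% and 14.8% of all genes fell), 0 rose, and the medians were -0.18, -0.19 and -0.17. NPM1, a nucleolar chaperone, had 644, 652 and 722 CPM, 588, 659 and 683 CPM and 714, 595 and 632 CPM against 842, 903 and 852 CPM in control, with log2 fold changes of -0.36 ± 0.07 (SE), adjusted p = 0.0012, then -0.43 ± 0.07 (SE), adjusted p = 4.1e-04, and -0.42 ± 0.07 (SE), adjusted p = 4.7e-04. EIF3F, a subunit of an initiation factor, had the largest called fall of the list with BTW (-0.48 ± 0.15 (SE), adjusted p = 0.025), lost without BTW 1 or control 1 (-0.41 to -0.36). The elongation factor EEF1A1 was at 0.05, -0.00 and 0.07.

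Dedicated chaperones carry single ribosomal proteins to assembly. Of 8 such genes, 3 fell with BTW, 2 with CH and 3 with ZL, where 17.1%, 15.0% and 14.8% of all genes fell. They were GRWD1, which escorts RPL3, at -0.34, -0.31 and -0.30, BCCIP, which escorts RPL23, at -0.32, -0.31 and -0.37, and TSR2, which escorts RPS26, at -0.37 and -0.35, with -0.31 not past the threshold for CH. TSR2 lost its call with BTW without BTW 2, BTW 3 or control 2 (-0.37 to -0.32), and with ZL without control 2 or 3 or ZL 2 or 3 (-0.36 to -0.28). Of 18 regulators of TOP mRNAs and mTORC1, 4, 6 and 4 rose, where 15.7%, 13.1% and 13.4% of all genes did, and 5, 5 and 6 fell, where 17.1%, 15.0% and 14.8% did. The largest rises were those of SESN1 and SESN2, p53 targets that restrain mTORC1. SESN2 had 22, 20.6 and 22.3 CPM with BTW, 16.3, 16.4 and 19.9 CPM with CH and 13.3, 15.7 and 15.7 CPM with ZL against 6.21, 6.1 and 7.33 CPM in control, and its log2 fold changes were 1.72, 1.41 and 1.18. Those of SESN1 were 1.70, 1.49 and 1.28. The largest falls with BTW were those of EIF4EBP1 (-0.39), an inhibitor of cap-dependent initiation, and RPS6KB1 (-0.36), which encodes S6 kinase, and LARP1 itself fell (-0.25).

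Summed over the members, their share of all counts in A549 was 3.14% ± 0.05 (SD, n = 3) in control, 3.01% ± 0.15 with BTW, 2.92% ± 0.07 with CH and 2.80% ± 0.15 with ZL. The single libraries were at 3.14%, 3.19% and 3.09% in control, 2.87%, 2.99% and 3.16% with BTW, 2.86%, 2.90% and 2.99% with CH, and 2.96%, 2.67% and 2.76% with ZL. The third BTW library lay within the control range and all other treated libraries below it. In Huh7 the control libraries were at 3.20%, 3.20% and 3.17%, those with BTW at 3.42%, 3.34% and 3.64%, all above control, and those with CH at 3.04%, 3.20% and 2.996%. With ZL they were at 2.24%, 2.62% and 3.15%. Large subunit counts per small subunit count ranged from 1.27 to 1.35 in A549 and from 1.33 to 1.42 in Huh7.

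**Figure D3:**
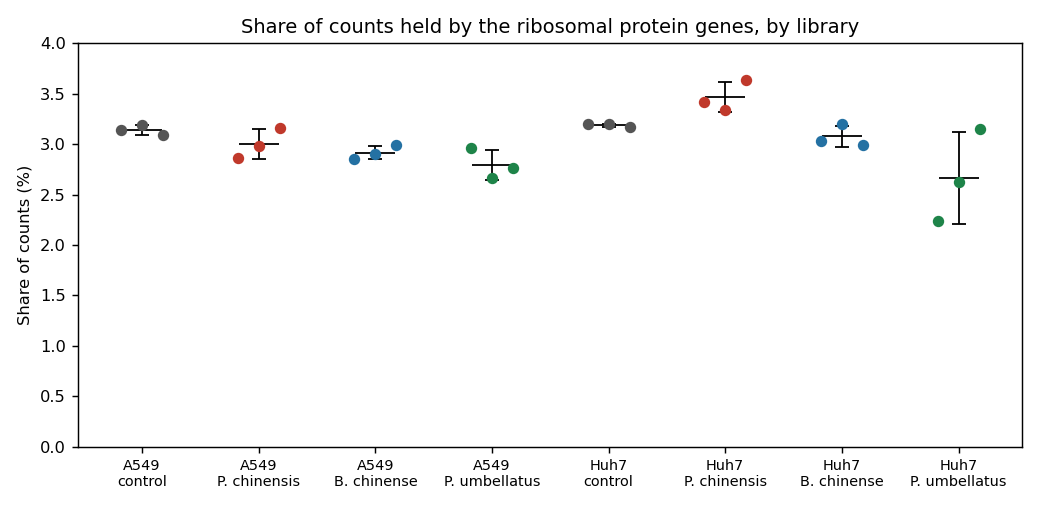
Percentage of each library's counts held by the members (points, 3 libraries per group) with the group mean and SD (black), on an axis from 0. The A549 means fall from 3.14% in control to 2.80% with ZL, and the Huh7 libraries with ZL spread from 2.24% to 3.15%.

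In Huh7 cells BTW and CH changed almost no member past the threshold. With BTW, 1 of 77 members rose and 0 fell over 13876 genes tested by edgeR, where 10.4% of all genes rose and 10.5% fell, and the members' median was 0.09. At an unadjusted p below 0.05, 4 members were higher and 1 lower. The riser was RPL35, which lies at the exit of the peptide tunnel, with 351, 348 and 390.4 CPM with the extract and 285, 296 and 292 CPM in control. Its groups did not overlap, as for 26.7% of all genes in the upward direction, and its log2 fold change was 0.32 ± 0.07 (SE), adjusted p = 0.0082. With CH, 0 members passed in either direction, where 0.519% of all genes rose and 0.757% fell. The members' median was -0.10, 3 members were lower at an unadjusted p below 0.05, and DESeq2 called 1 lower. When only the 6 libraries of a comparison were fitted, without the more variable ZL libraries, 24 members rose and 3 fell with BTW and 7 fell with CH. The shares of all genes above come from the fit of all Huh7 libraries, and none is given for these smaller fits. These counts are therefore not read as a result about the members.

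With ZL in Huh7 cells, 25 of 77 members fell and 0 rose, where 17.8% of all genes fell and 19.3% rose, and the members' median was -0.22. RPL8 had 152, 52 and 197 CPM with the extract and 246, 245 and 263 CPM in control (-0.90 ± 0.31 (SE), adjusted p = 0.037). RPS28 had 95.6, 88.3 and 181 CPM with the extract and 201, 222 and 211 CPM in control (-0.79 ± 0.21 (SE), adjusted p = 0.013). RPL4 had 255, 181 and 316 CPM with the extract and 411, 434 and 452 CPM in control (-0.78 ± 0.14 (SE), adjusted p = 0.0026). In each, all treated libraries lay below all controls, as for 23.6% of all genes, and the third treated library was the closest to control. All of the P stalk genes fell, with RPLP1 at 418, 338 and 692 CPM with the extract and 780.4, 842 and 865 CPM in control (-0.78 ± 0.19 (SE), adjusted p = 0.0093), RPLP2 at -0.42 and RPLP0 at -0.25. RPL11 fell (-0.56 ± 0.18 (SE), adjusted p = 0.032), whereas RPL5 was at 0.00 ± 0.08 (SE). RPS19 had 198, 237 and 318 CPM with the extract and 337, 377 and 355 CPM in control and fell (-0.51 ± 0.13 (SE), adjusted p = 0.011). Fitted with its 6 libraries alone, this comparison called 2 members lower, with no share of all genes given for that fit. RPL8 lost its call without ZL 1, CH 1, any 1 of the BTW or any 1 of the control libraries (-0.999 to -0.87), RPL11 without ZL 2 or any control (-0.59 to -0.36), RPLP2 without ZL 1, ZL 2 or any control (-0.46 to -0.29), and RPLP0 without ZL 1 or control 1 or 2 (-0.28 to -0.17). Of the lists, 3 of 18 other TOP mRNAs fell and 1 rose, with EEF1D, an elongation factor subunit, at -0.91 ± 0.14 (SE), adjusted p = 0.0013, and of 8 chaperones 3 fell and 3 rose.

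GC content moved with these falls. Across members, the Spearman correlation of log2 fold change with transcript GC content was -0.49 (77 members, measured in the same libraries), and across 13798 other genes it was -0.66. Of the 26 members with GC content from 51.9% to 63.55%, 18 fell, with a median of -0.39, while of the 25 tested with GC content from 40.1% to 45.5%, 1 fell, with a median of -0.10. By library, the members' median against the control mean was -0.54, -0.24 and -0.02 in the 3 ZL libraries. In the first, low- and high-GC members were at -0.56 and -0.50. In the second they were at 0.08 and -0.65, and the 10% of other genes with the lowest and highest GC content at 0.61 and -1.20. In the third they were at 0.04 and -0.14. Correction for GC content and transcript length called 4 members higher and 23 lower, with the smooth fitted on other genes only. RPL4 was at -0.98, RPLP1 at -0.865 and RPL11 at -0.59, all past the threshold, whereas RPL8 was at -0.18 and RPS19 at -0.24, not past it. Without the third library 44 members fell, without the first 8 rose, and without any 1 of the controls 15 or 16 fell. In A549 the correlation with GC content was 0.24 for the members and 0.11 for other genes with the same extract.

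**Figure D4:**
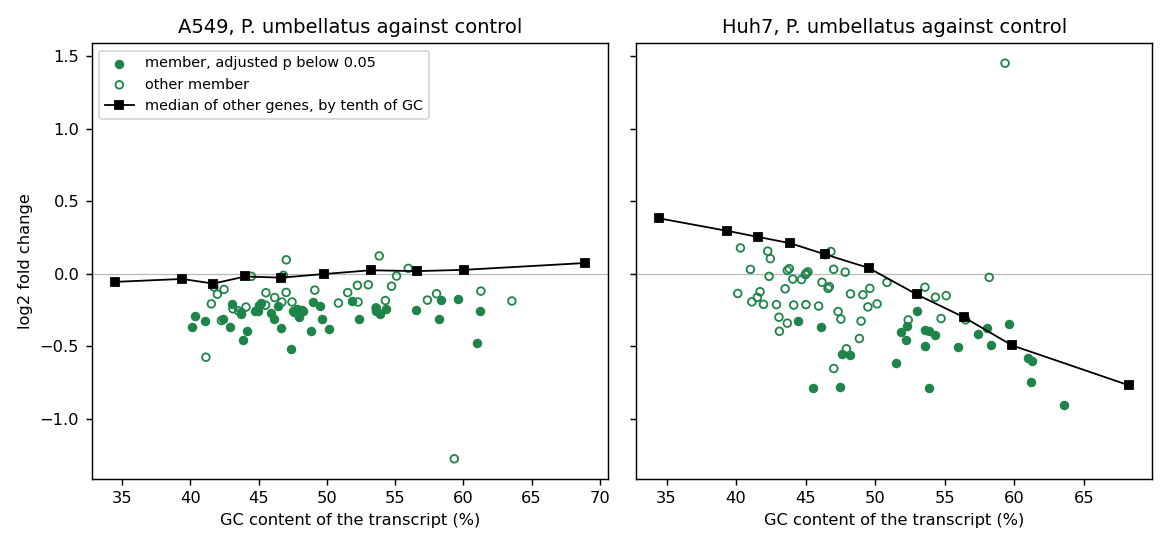
Log2 fold change of each member with ZL against the GC content of its transcript (green, filled where the adjusted p was below 0.05), with medians of other genes by GC content in equal groups (black). In Huh7 both decline with GC content (Spearman -0.49 and -0.66), and in A549 75 of 78 members lie below 0.

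Whether the lines differed was tested as an interaction over all 24 libraries and 12925 genes. The spread was estimated over all of them, including the more variable Huh7 ZL libraries, and no interaction was fitted without that whole group. Few calls with BTW or CH therefore do not show that the lines responded alike. With BTW, 3 of 77 members had a lower change in A549 than in Huh7 and 0 a higher one, where 9.3% and 10.3% of all genes did, and the members' median difference was -0.17. They were RPL24 at -0.46 ± 0.14 (SE), adjusted p = 0.026, RPL37 at -0.42 ± 0.14 (SE), adjusted p = 0.035, and RPL35 at -0.41 ± 0.13 (SE), adjusted p = 0.023. None of them passed without A549 BTW 1, control 1 or control 2 (-0.45 to -0.35), and RPL37 did not pass without A549 ZL 3, Huh7 BTW 3 or Huh7 control 2 (-0.41 to -0.35). With CH, 0 members passed the threshold in either direction, where 5.8% and 5.79% of all genes did. The median was -0.03, and 2 had an unadjusted p below 0.05, while DESeq2 called 1. With ZL, 10 members had a higher change in A549 and 0 a lower one, where 19.1% and 15.3% of all genes did, and the median was 0.11. The largest were RPS28 at 0.99 ± 0.25 (SE), adjusted p = 0.0049, RPL4 at 0.73 ± 0.17 (SE), adjusted p = 0.0029, and RPLP1 at 0.66 ± 0.22 (SE), adjusted p = 0.024, followed by RPS19 at 0.62 ± 0.14 (SE), adjusted p = 0.0022. Without the third Huh7 ZL library 26 were higher, and without the first 11 were lower. RPLP1 did not pass without A549 ZL 1, Huh7 control 2 or 3, or Huh7 ZL 1 or 2 (0.46 to 0.61). RPS27L differed with each extract, at 1.04 ± 0.20 (SE), adjusted p = 6.4e-04, then 0.97 ± 0.20 (SE), adjusted p = 0.0026, and 0.98 ± 0.20 (SE), adjusted p = 9.9e-04. RPL22L1 differed with BTW (-0.91 ± 0.25 (SE), adjusted p = 0.013).

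Between the control cells of the lines, members differed in both directions. In A549 against Huh7 controls, 21 of 77 members were higher and 22 lower, where 33.7% and 34.9% of all genes were, and the median was 0.04. RPS12, a small subunit protein, had 183, 211 and 190.4 CPM in A549 and 658, 719 and 663 CPM in Huh7 (-1.80 ± 0.11 (SE), adjusted p = 2.9e-12). RPL14, of the large subunit, had 54.7, 93.8 and 72.8 CPM and 210.2, 219.9 and 225 CPM (-1.56 ± 0.13 (SE), adjusted p = 3.2e-10), and RPL9 had 23.8, 24.6 and 27.2 CPM and 52, 56.9 and 51.9 CPM (-1.09 ± 0.28 (SE), adjusted p = 0.0015). In the other direction, RPS19 had 794, 772 and 747 CPM and 343, 383 and 361 CPM (1.09 ± 0.10 (SE), adjusted p = 2.9e-09). RPS16 and RPS6 were higher in A549 by 1.08 and 1.03, and RPS7 by 0.99. For each of these the libraries of the lines did not overlap, as for 37.0% of all genes upward and 39.3% downward. RPL22L1 was higher in A549, at 66.9, 63.5 and 50 CPM against 16.2, 13.8 and 14.1 CPM (2.02 ± 0.18 (SE), adjusted p = 1.4e-09).

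**Figure D5:**
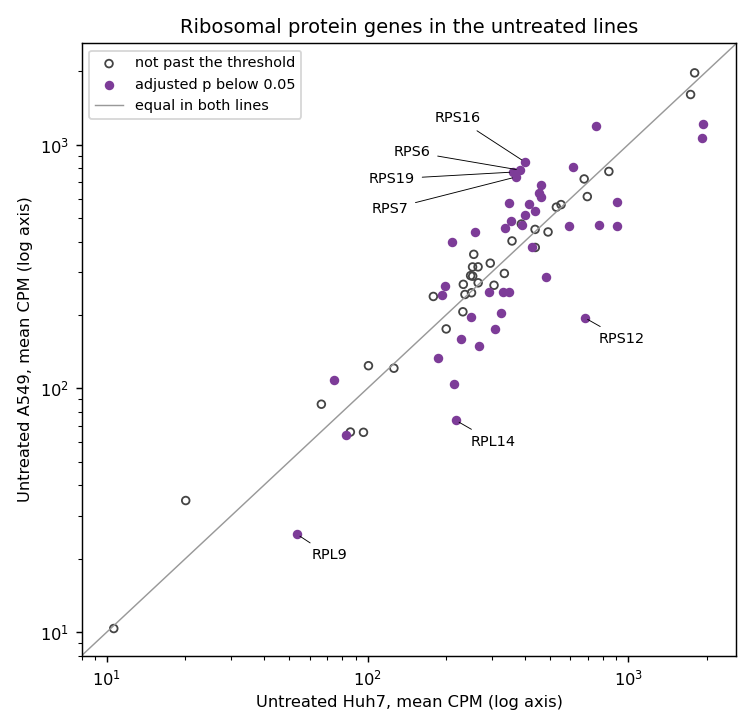
Mean CPM of each member in the 3 control libraries of Huh7 and of A549, on log axes, filled where the adjusted p was below 0.05, with the line of equal levels. RPS12, RPL14 and RPL9 lie below the line and RPS16, RPS6, RPS19 and RPS7 above it.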

How the data were processed

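RNA-seq libraries of A549 and Huh7 cells, 3 per group, were analysed. The authors extracted RNA, removed ribosomal RNA, sequenced stranded total RNA in paired ends, quantified it with kallisto against Ensembl transcripts (GRCh38.p13), and deposited estimated counts as whole numbers after keeping protein-coding genes whose mean count passed 5. From these, CPM were computed with TMM factors over the libraries of a line. Where control cells of the lines were compared, the factors were over all 24 libraries, so the same A549 libraries have slightly different CPM there. CPM of the cell type markers used library totals alone. Genes with a mean count of at least 5 in the libraries fitted were tested with edgeR 4.0.16 (R 4.3.3). The quasi-likelihood test was run on the groups of a line (both lines for interactions and control cells). It was two-sided, with Benjamini-Hochberg adjustment over all genes and a threshold of 0.05. Library totals ranged from 6803704 to 24345541 counts (median 10515192), and replicate pairs differed by more than sampling noise. Transcript lengths and GC content came from the canonical transcripts of GENCODE 44. Tracts were searched in RefSeq promoters.

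Named were the 3 largest rises and falls past the threshold in each comparison, members fixed by name, and genes of the lists. The members and lists were chosen with earlier results of these data known. Alternatives were DESeq2 1.42.0, other scalings and filters, a replicate block, corrections for GC content and length, the 6 libraries compared alone, and leaving out each library. On simulated data, 133 of 200 genes given a log2 change of 1 were recovered for BTW in A549, and 5 of 200 given a change of 0.3. Those genes were drawn at random from all genes tested, and no other gene was changed. Most members are highly expressed, and many genes changed in the real data. The shares recovered therefore do not give the power for the members. Some genes that passed the threshold are not reported here.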

Additional observations from a re-analysis of the deposited data

Results flagged for a closer look

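These results are listed because the change with an extract differed between A549 and Huh7 in the interaction test of edgeR with Benjamini-Hochberg adjustment. With BTW, the difference in log2 fold change, A549 minus Huh7, was -0.91 for RPL22L1, -0.46 for RPL24, -0.42 for RPL37, -0.41 for RPL35 and 1.04 for RPS27L. With CH, it was 0.97 for RPS27L.

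With ZL, the difference was 0.99 for RPS28, 0.98 for RPS27L, 0.73 for RPL4, 0.66 for RPLP1, 0.62 for RPS19, 0.57 for RPL10, 0.39 for RPL18, 0.29 for RPL7A and 0.26 for RPLP0. RPL18 and RPL7A were named after their values were seen. The Huh7 libraries in this comparison differed from one another in the relation of counts to GC content. Corrected for GC content and transcript length, with the smooth fitted on other genes, the differences of RPS28 (0.86), RPS27L (1.30), RPL4 (0.97), RPLP1 (0.85), RPL10 (0.55) and RPL7A (0.32) still passed the threshold, and those of RPS19 (0.34), RPL18 (0.08) and RPLP0 (0.19) did not. Groups of 3 libraries were not searched for outlying samples. Left out singly, 12 libraries ended the call of RPL18 (0.27 to 0.39), 12 that of RPLP0 (0.20 to 0.26), 14 that of RPL7A (0.22 to 0.30) and Huh7 control 2 that of RPL10 (0.48).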

How the results depend on the processing

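Median changes of the members kept their sign when any 1 library was left out in the 6 comparisons with control, and no gene whose value was recomputed this way changed sign. Genes named only for a value that did not pass the threshold were not all recomputed. Numbers shared by replicates in the labels did not pair the libraries: same-numbered libraries correlated at -0.15 to 0.09 in A549 and at -0.08 to 0.14 in Huh7, and 2 and 5 of 12 libraries correlated best with their own number. With the replicate block, members higher with CH in A549 went from 1 to 0, and 22, 26 and 37 were lower with BTW, CH and ZL.

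Corrections for GC content and length moved many counts (those by coding length, and those fitted on other genes, were chosen after seeing the data). Counts in this section stand without the shares of all genes called under the same settings. In A549, the transcript length correction gave 21 higher and 7 lower with BTW (23 and 7 fitted on other genes, 20 and 6 with the block), 14 and 9 with CH (14 and 9, 11 and 8) and 10 and 14 with ZL (11 and 14, 10 and 12). The coding length correction gave 2 higher with BTW in all its forms (14 lower with the block), 19 lower with CH (19 fitted on other genes, 14 with the block) and 23 lower with ZL with the block. In Huh7, transcript length gave 5 higher (5, 6 with the block) and 2 lower (2, 2) with BTW, 1 lower (1) with CH and 4 higher (4, 3) with ZL. Coding length gave 3 higher (3, 3) and 2 lower (2, 2), 1 lower (1), and 3 higher (3, 2). For A549 minus Huh7, transcript length gave 8 positive (8, 8) and 0 negative (0, 1) with BTW, 5 positive (6, 6) with CH, and 22 positive (22, 26) and 3 negative (3, 3) with ZL. Coding length gave 1 positive (1, 1) and 1 negative (1, 1), 1 positive (1, 2), and 3 negative (3, 3).

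Under the correction for GC content and transcript length the direction turned as follows. With CH in A549 it turned for RPL24 (0.012 fitted on other genes), RPL26 (0.185, 0.2 fitted on other genes, 0.184 with the block), RPL39 (0.373, 0.389 fitted on other genes, 0.373 with the block), RPS7 (0.002 fitted on other genes). With BTW in A549 it turned for RPL17 (0.027, 0.046 fitted on other genes, 0.025 with the block), RPL24 (0.087, 0.109 fitted on other genes, 0.087 with the block), RPL26 (0.214, 0.239 fitted on other genes, 0.214 with the block), RPS27 (0.412, 0.439 fitted on other genes, 0.408 with the block), RPS7 (0.033, 0.046 fitted on other genes, 0.034 with the block). With ZL in A549 it turned for RPL24 (0.003, 0.012 fitted on other genes, 0.002 with the block), RPL26 (0.173, 0.183 fitted on other genes, 0.173 with the block), RPL39 (0.36, 0.368 fitted on other genes, 0.358 with the block), RPS27 (0.112, 0.12 fitted on other genes, 0.112 with the block), RPS7 (0 fitted on other genes). With ZL in Huh7 it turned for RPLP2 (0.138, 0.144 fitted on other genes, 0.138 with the block). Under the coding length correction it turned for RPL39 with CH in A549 (0.03, 0.029 fitted on other genes and 0.03 with the block).

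With the 6 libraries compared alone, Huh7 had 24 higher and 3 lower with BTW, 7 lower with CH and 2 lower with ZL. DESeq2 called 1 lower with BTW and 1 with CH in Huh7 and 1 positive difference between lines with CH, and its size factors in edgeR 1 lower with BTW in Huh7. Without the mitochondrially encoded genes the members' share was 3.02% with CH and 3.24% in control in A549, and 3.26% in Huh7 control. The cause of these shifts was not tested.

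Leaving out 1 library, members lower in A549 ranged from 9 to 26 with BTW, 11 to 37 with CH (0 to 1 higher) and 24 to 54 with ZL. In Huh7, 1 to 5 were higher and 0 to 2 lower with BTW, 0 to 2 lower with CH, and 0 to 8 higher and 15 to 44 lower with ZL. Between lines, 0 to 6 negative and 0 to 1 positive differences were called with BTW, 0 to 1 positive with CH, and 4 to 26 positive and 0 to 11 negative with ZL. Between the control cells, 19 to 24 were higher and 18 to 30 lower. Shares ranged from 2.93% to 3.08% and 2.88% to 2.95% and 2.71% to 2.86% with the extracts and 3.11% to 3.16% in control in A549, and from 3.38% to 3.53%, 3.02% to 3.12%, 2.43% to 2.88% and 3.18% to 3.20% in Huh7. Levels per length were not run. Other genes chosen by the members' lower quartile of CPM were therefore not matched in level per length. Small changes were near the limit of what 3 libraries a group resolve.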
